A study of Mus musculus with 9 samples.

Results

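The Aurora kinases and the chromosomal passenger proteins were followed through 8 genes, Aurka, Aurkb, Aurkc, Incenp, Birc5, Cdca8, Tpx2 and Plk1, listed by name. Of 19938 genes with a row that carried only 1 gene symbol, all 8 were present. Aurkc had 4 such rows and each of the other genes had 1. Of several rows of a gene, that of the highest mean was taken.

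RNA was measured on Affymetrix Mouse Gene 1.0 ST arrays in 9 single oocytes, 1 oocyte per array. All came from unmated females of the ICR strain, an outbred stock, aged 2 months. They had been superovulated by injection of PMSG (10 IU) followed after 46 hours by hCG (10 IU), and the protocol names metaphase II as the stage. The groups differed in how the RNA was prepared, with 3 oocytes each: purified on Qiagen RNeasy Mini columns, purified on Arcturus PicoPure columns, or used as a crude lysate in NuGEN direct lysis buffer. Amplification used the NuGEN Ovation One-Direct kit throughout. Each condition drew on 3 mice with between 1 and 3 cells per mouse, and the labels do not tie an oocyte to a mouse. Some oocytes may therefore share an animal, and the p-values measure only the spread between these oocytes.

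Aurora kinases are serine/threonine kinases that run chromosome segregation. Aurora A (Aurka) works at spindle poles and on spindle microtubules, where Tpx2, freed from importins around the chromosomes by the GTPase Ran, binds and activates it. Aurora B (Aurkb) and its germ cell relative Aurora C (Aurkc) are the catalytic subunits of the chromosomal passenger complex, in which Incenp is the scaffold and Birc5 (survivin) and Cdca8 (borealin) bring the complex to the inner centromere. The complex corrects wrong attachments of microtubules to kinetochores and acts later at the spindle midzone. Polo-like kinase 1 (Plk1) is itself switched on by Aurora A and acts at poles, kinetochores and midzone. In a mature oocyte transcription is silent and the spindle stands at metaphase II, so the messages measured are a stored maternal supply, and their level says nothing of how much protein was present.

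Promoters of 4 members, Aurka, Aurkc, Birc5 and Plk1, were read from RefSeq (GRCm38.p6), each covering 250 bases before and 50 after the start. The hexamer TTTGAA, the core of the element called the cell cycle genes homology region, is known from genes whose transcripts peak at G2 and mitosis. It was read in the direction of the gene in Aurka and Plk1, both times within the 50 bases after the start, and was searched on both strands (its reverse complement TTCAAA occurred in none of the 4). These stretches are shown because the hexamer is a sequence feature that Aurka and Plk1 share and that played no part in choosing the members. The capitals mark the hexamer:
Aurka: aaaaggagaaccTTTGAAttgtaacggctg
Plk1: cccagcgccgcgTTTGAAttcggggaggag
The Aurka stretch lies on the minus strand at chr2:172370521-172370550 and that of Plk1 on the plus strand at chr7:122159453-122159482. The hexamer began 33 and 31 bases into the transcript. Of 32851 promoter windows of the same length, 17.9% held it on either strand, 10.2% in the direction of the gene, and 1.27% in that direction after the start. The letters were not found in the windows of Aurkc and Birc5. The pentamer CCAAT, searched on both strands and present in 37.4% of all windows, was found in Aurka, Plk1 and Aurkc and not in Birc5, and no match overlapped the hexamer. A match is a description of these letters and not evidence of a bound factor.

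All 12 oocyte markers, among them Gdf9, Bmp15 and Zp3, lay above background on all 9 arrays, as the labelled cell type would have it. Background was set on each array at the 95th percentile of 1231 olfactory, vomeronasal and taste receptor genes and lay between 7.19 and 7.48 on the log2 scale. Cumulus and granulosa cells divide and would carry messages of the same family. Of their 19 markers with a row, 12 lay above background on no array, 4 on some and 3 (Foxl2, Nr5a1 and Fst) on all. The mean level of these 19 ran from 6.78 to 7.17 over the RNeasy oocytes, from 6.72 to 6.83 over the PicoPure oocytes and from 6.81 to 6.94 over the crude lysates. The highest of these values was RNeasy replicate 3, where Inhba (8.48), Ptgs2 (7.56) and Tnfaip6 (8.39), genes of the expanding cumulus, were above background on that array alone. Not all such genes did so. Ptx3 was just above background on PicoPure replicate 3 (7.34) and direct lysis replicate 3 (7.27) and just below it on RNeasy replicate 3 (7.46). Has2 was above background on no array. Of 5 blood and immune markers, 3 lay above background on no array, Cd68 on 2 and Cd3e on all 9, where its highest value was 7.62. Where leaving out RNeasy replicate 3 turned a sign, ended a call or moved a count by over 1.5 times, the value without it is given, and the part of these markers in any result was not tested.

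All 8 members lay above background on all 9 arrays, and also with background set at the 90th or the 99th percentile. By contrast, 8597 of all 19938 genes did so on every array and 6998 on none. Birc5 and Plk1 stood at least 22.1 and 20.5 times above the background of every array, Aurka at least 17.2 times, Cdca8 14.4 times, Tpx2 13.4 times, Incenp 12.3 times and Aurkc 11.4 times. Aurkb was the exception, at 2.60 times in the oocyte where it was nearest to background. Each row has its own probes, so the levels of different genes on the array do not give the order of their transcript numbers.

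**Figure D1:**
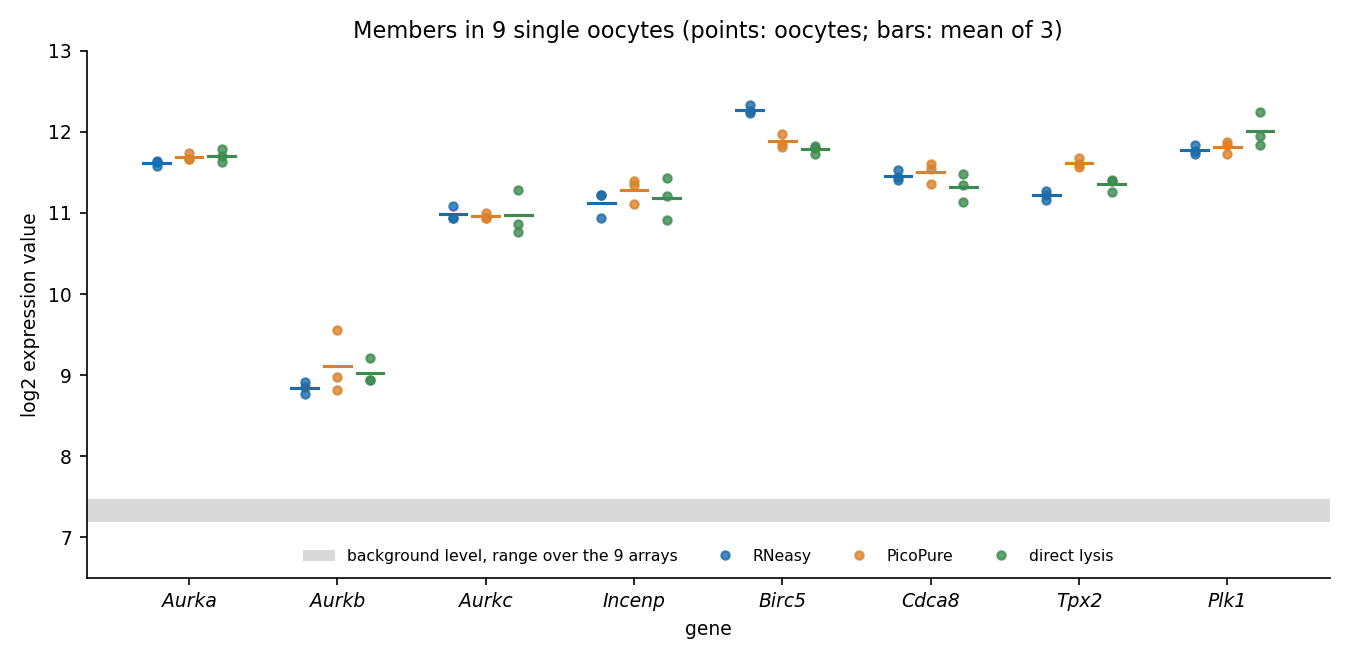
Log2 expression value (vertical axis) of the 8 genes (horizontal axis) in 9 single oocytes, coloured by preparation. Points are oocytes, bars the mean of 3 oocytes, and the grey band the range of the background level over the arrays. All points lie above the band, with Aurkb nearest to it.

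Aurka, the spindle pole kinase, varied least. It had 11.65, 11.62 and 11.58 in the 3 RNeasy oocytes, 11.74, 11.67 and 11.66 with PicoPure and 11.63, 11.78 and 11.70 with direct lysis. All 9 oocytes thus lay within 0.20 log2 units. PicoPure oocytes were each above the RNeasy oocytes, by a mean of 0.08 ± 0.07 (SE), which did not pass the test (limma, adjusted p = 0.811). The difference between crude lysate and purified RNA was 0.05 ± 0.06 (limma, adjusted p = 0.708), with a 95% confidence interval from -0.08 to 0.18.

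Aurkb, the kinase of the passenger complex in dividing somatic cells, had 8.91, 8.77 and 8.86 with RNeasy, 9.56, 8.97 and 8.82 with PicoPure and 8.94, 8.94 and 9.21 with direct lysis. PicoPure replicate 1 stood above the other 8 oocytes, which ran from 8.77 to 9.21. The preparations overlapped. PicoPure exceeded RNeasy by 0.27 ± 0.18 (SE; limma, adjusted p = 0.771), and by 0.05 without PicoPure replicate 1. Crude lysate exceeded purified RNA by 0.05 ± 0.16 (limma, adjusted p = 0.912).

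Aurkc, the Aurora kinase of meiotic cells, had 10.93, 10.94 and 11.08 with RNeasy, 10.94, 11.00 and 10.94 with PicoPure and 10.86, 11.29 and 10.77 with direct lysis. The 6 purified oocytes lay inside the range of the crude lysates, whose replicate 2 was the highest and replicate 3 the lowest of all 9. Both differences were near 0, at -0.0024 ± 0.11 (SE) for crude lysate minus purified RNA and -0.02 ± 0.13 for PicoPure minus RNeasy (limma, adjusted p = 0.995 and 0.979). Their 95% confidence intervals ran from -0.26 to 0.26 and from -0.33 to 0.28. Both were positive without RNeasy replicate 3, at 0.02 each. The 4 rows named for Aurkc listed the same 5 accessions and had means of 10.63, 10.97, 10.71 and 10.71. Direct lysis replicate 2 was the highest oocyte in the row used and in 2 of the others, while the remaining row was highest in PicoPure replicate 3. Crude lysate minus purified RNA was -0.15, -0.0024, 0.02 and 0.08 in these rows, and none passed (limma over all rows, lowest adjusted p = 0.46). PicoPure minus RNeasy was 0.19, -0.02, 0.06 and 0.14, negative only in the row used. None of these passed either (limma over all rows, lowest adjusted p = 0.663). Signal that such rows may share with near-identical sequence was not tested.

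Incenp, the scaffold of the complex, had 11.22, 10.94 and 11.22 with RNeasy, 11.35, 11.11 and 11.40 with PicoPure and 11.20, 10.91 and 11.43 with direct lysis. The groups overlapped throughout, and the difference was -0.03 ± 0.13 (SE) for crude lysate minus purified RNA and 0.16 ± 0.15 for PicoPure minus RNeasy (limma, adjusted p = 0.944 and 0.828). Cdca8 had 11.44, 11.40 and 11.52 with RNeasy, 11.54, 11.35 and 11.60 with PicoPure and 11.35, 11.14 and 11.48 with direct lysis. It also overlapped between groups, with -0.16 ± 0.09 and 0.04 ± 0.11 (limma, adjusted p = 0.48 and 0.947). Without RNeasy replicate 3 the latter was 0.08. Incenp, Cdca8 and Tpx2 were each lowest in the oocyte numbered 2 of all 3 preparations. Among the 8597 genes above background on every array, 11.3% had the same number lowest in all preparations, and 3.61% had number 2. The labels do not say that a number links oocytes of different preparations, and the pattern was noticed after the values were seen.

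Birc5, the survivin subunit, was highest with RNeasy, though no difference passed the test. It had 12.25, 12.23 and 12.33 with RNeasy, 11.86, 11.82 and 11.97 with PicoPure and 11.82, 11.80 and 11.73 with direct lysis. The 3 RNeasy oocytes were each above the other 6, while PicoPure and direct lysis met at 11.82. The difference of PicoPure from RNeasy was -0.39 ± 0.07 (SE), or 1.31-fold more with RNeasy (95% confidence interval of the difference from -0.55 to -0.23), and its unadjusted p was 5.26e-04. Over all genes it did not pass (limma, adjusted p = 0.177). Crude lysate differed from the mean of both purified groups by -0.29 ± 0.06, with 11.78 ± 0.05 (SD, n = 3) against 12.08 ± 0.22 (SD, n = 6), and did not pass either (limma, adjusted p = 0.0805). Without RNeasy replicate 3 these differences were -0.36 and -0.28.

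Tpx2, the activator of Aurora A, was highest with PicoPure, again with no difference past the threshold. It had 11.27, 11.17 and 11.22 with RNeasy, 11.61, 11.56 and 11.68 with PicoPure and 11.40, 11.25 and 11.40 with direct lysis. Each PicoPure oocyte was above each of the other 6, and direct lysis overlapped RNeasy. PicoPure exceeded RNeasy by 0.40 ± 0.07 (SE), or 1.32-fold, with a 95% confidence interval from 0.23 to 0.56 and an unadjusted p of 5.43e-04, and did not pass over all genes (limma, adjusted p = 0.177). Crude lysate differed from purified RNA by -0.07 ± 0.06 (limma, adjusted p = 0.647). Without RNeasy replicate 3 the difference between the kits was 0.40.

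Plk1, the polo-like kinase, had 11.77, 11.73 and 11.83 with RNeasy, 11.73, 11.88 and 11.84 with PicoPure and 12.24, 11.95 and 11.84 with direct lysis. Crude lysate replicates 1 and 2 lay above the 6 purified oocytes, and replicate 3 was level with PicoPure replicate 3. Crude lysate exceeded purified RNA by 0.21 ± 0.09 (SE; 1.16-fold), with a 95% confidence interval from -0.0025 to 0.43, and did not pass (limma, adjusted p = 0.356). The difference was 0.10 without direct lysis replicate 1. Both kits differed by 0.04 ± 0.11 (limma, adjusted p = 0.953), and by 0.07 without RNeasy replicate 3.

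**Figure D2:**
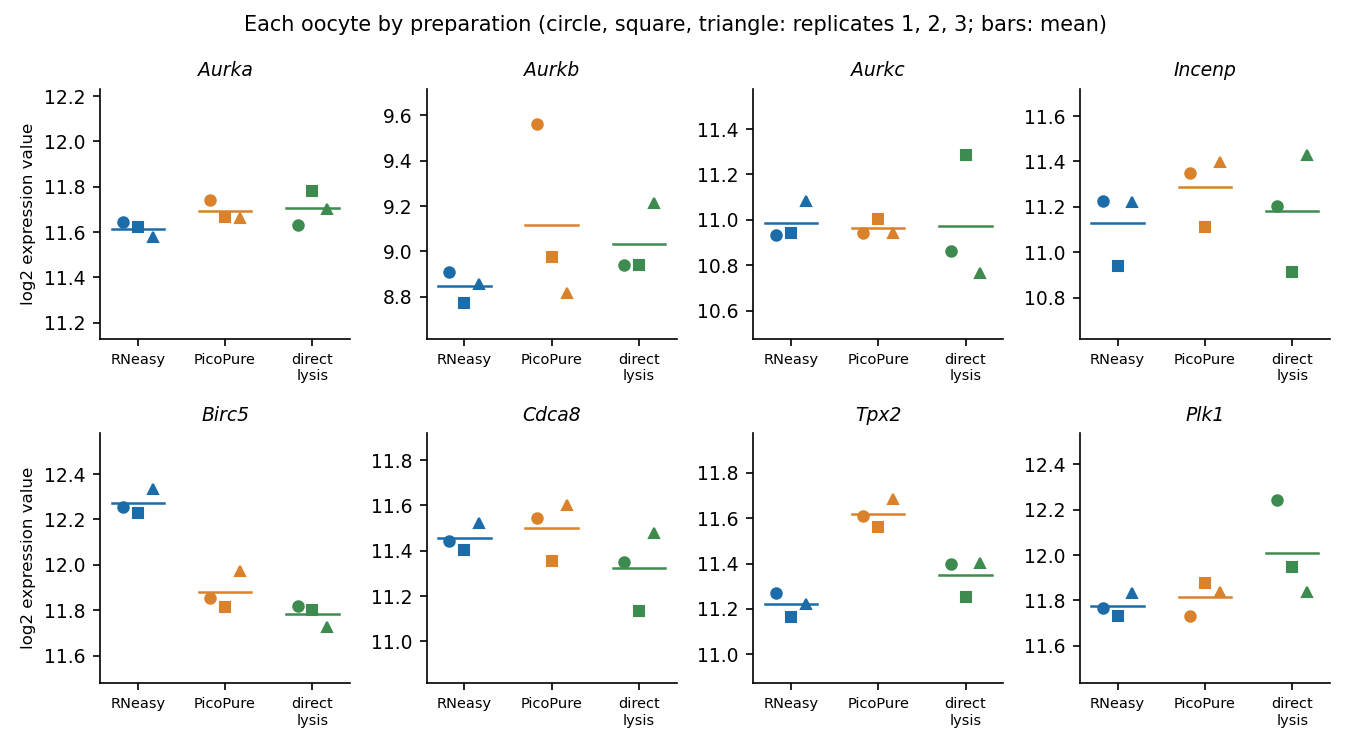
Log2 expression value (vertical axis) of each member by preparation (horizontal axis), with circles, squares and triangles for the oocytes numbered 1, 2 and 3 and a bar for the mean of 3. Each panel spans the same height in log2 units around its own values. Birc5 is highest with RNeasy, Tpx2 with PicoPure, and Aurkb has 1 oocyte at 9.56.

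No member passed in either comparison. At an unadjusted p below 0.05, 1 of 8 (Birc5) would count in the comparison of crude lysate with purified RNA and 2 of 8 (Birc5 and Tpx2) in that of the kits. Over all genes, limma called 201 of 19938 (1.01%) between crude lysate and purified RNA, 68 higher and 133 lower, and 12 (0.0602%) between PicoPure and RNeasy, 8 higher and 4 lower. For crude lysate these counts were 24, 67 and 111 without RNeasy replicate 1, 2 or 3, and 61, 43 and 116 without PicoPure replicate 1, 2 or 3. Between the kits they were 0, 4 and 4 without RNeasy replicate 1, 2 or 3, 1, 0 and 0 without PicoPure replicate 1, 2 or 3, and 6 without direct lysis replicate 1. Where limma called 0, between 1259 and 1439 genes had an unadjusted p below 0.05. The shares at an unadjusted p below 0.05 were 14.2% and 7.98%. Of the 8597 genes above background on every array they were 16.5% and 12.5%. Crude lysate and purified RNA overlapped in all 8 members, where 8.02% of all genes did not overlap. PicoPure and RNeasy did not overlap in 3 of 8, higher with PicoPure in Aurka and Tpx2 and lower in Birc5, where 13.9% of all genes did not overlap (6.92% higher and 7.03% lower). Among the 8597 genes above background on every array, 1115 were higher with PicoPure without overlap and 579 lower. For crude lysate against purified RNA these counts were 268 and 457. The median difference of the members was -0.01 for crude lysate against purified RNA, beside 0.00 for all genes and -0.02 for the 8597 genes above background on every array. It was 0.06 for PicoPure against RNeasy, beside -0.03 and 0.02. The sign of the first median turned to 0.10 under a further quantile normalization, where 6 of 8 members were positive instead of 3. That step also moved the median of all genes to 0.01 and that of the 8597 genes to 0.03. Of the 8597, 4887 were then positive instead of 4005. The 95% confidence intervals were taken gene by gene, unadjusted for the number of genes, and measure only the spread between these oocytes. For crude lysate against purified RNA the intervals of all 8 members lay within 1.35-fold in either direction. For the kits that of Aurkb reached furthest, to 1.62-fold. Larger differences are not excluded by these intervals. With single arrays left out, the difference of Plk1 for crude lysate against purified RNA ran from 0.10 to 0.30 log2 units. That of Aurkb for PicoPure against RNeasy ran from 0.05 to 0.42.

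**Figure D3:**
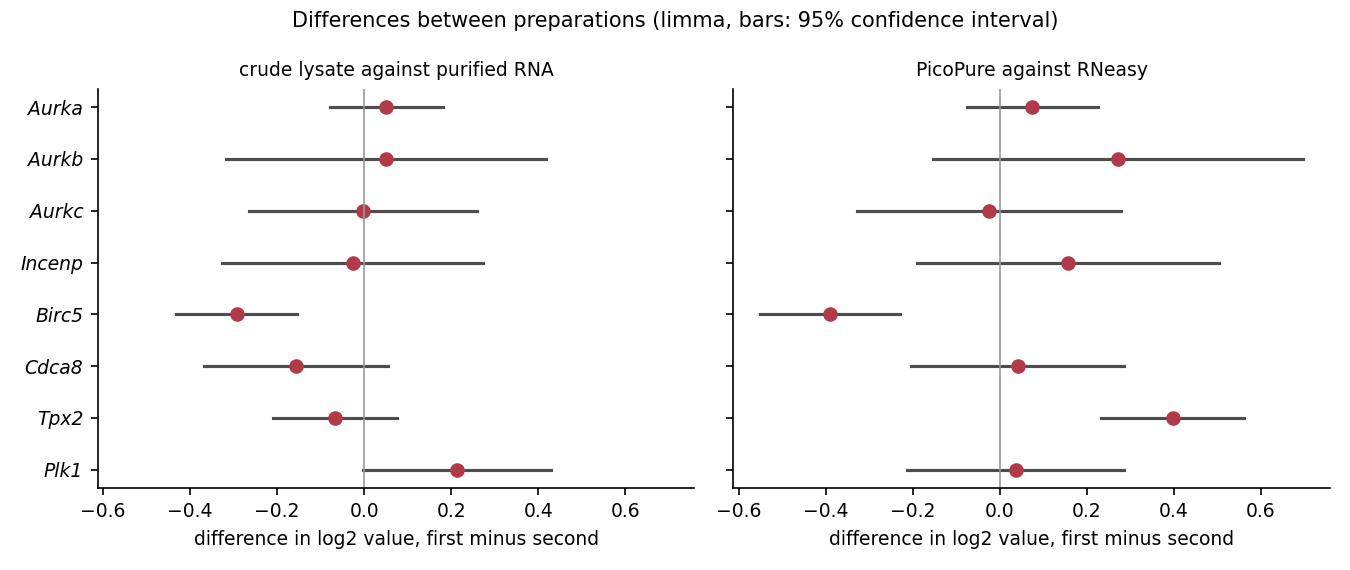
Difference in log2 value (horizontal axis) of the 8 members (vertical axis) for crude lysate minus purified RNA on the left and PicoPure minus RNeasy on the right. Points are limma estimates and bars their 95% confidence intervals, unadjusted for the number of genes. The interval excludes 0 for Birc5 on both sides and for Tpx2 on the right, and none of these passes over all genes.

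The members differed widely in how much oocytes of the same preparation varied. The residual SD within preparations was 0.05 log2 units for Aurka, 0.06 for Birc5 and 0.07 for Tpx2. Only 3.93%, 6.22% and 7.24% of the 8597 genes above background on every array had less spread. Cdca8 and Plk1 had 0.13 each, Aurkc 0.17, Incenp 0.20 and Aurkb 0.25, beside a median of 0.19 over those genes. The spread of 3 members came largely from 1 oocyte. Without PicoPure replicate 1 that of Aurkb was 0.12, without direct lysis replicate 1 that of Plk1 was 0.07, and without direct lysis replicate 2 that of Aurkc was 0.07. These shares describe the arrays, where rows near the top of the scale may also vary less.

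**Figure D4:**
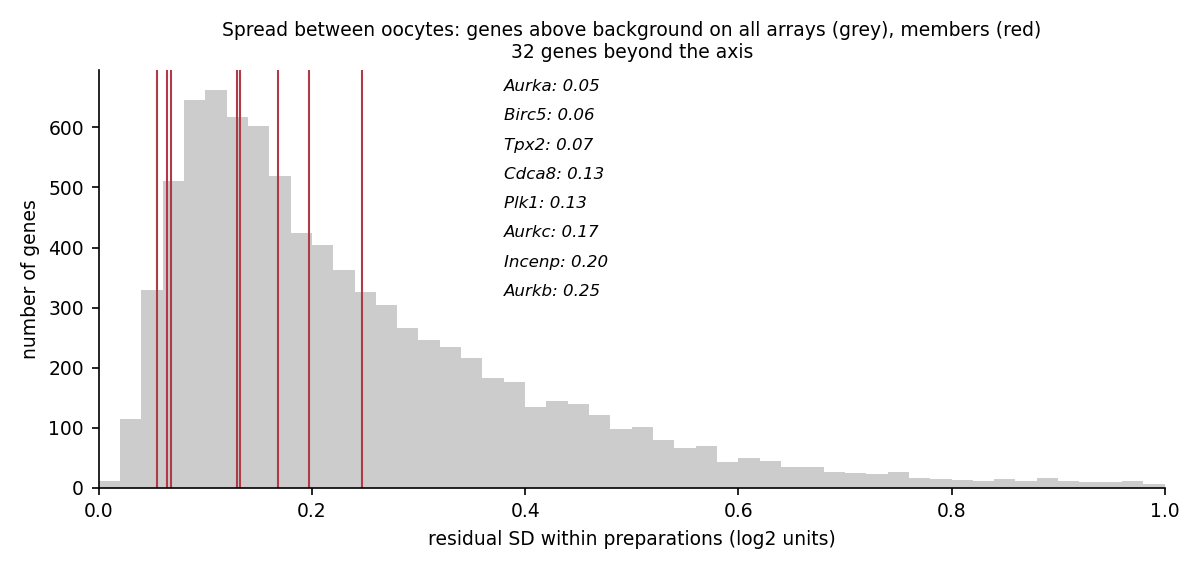
Number of genes (vertical axis) by residual SD within preparations in log2 units (horizontal axis) for the 8597 genes above background on every array, with red lines for the 8 members, and 32 genes beyond the end of the axis. Aurka, Birc5 and Tpx2 lie in the lower tail and Aurkb, at 0.25, above the median of 0.19.

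Aurkb had the largest SD over the 9 oocytes (0.25), and 3 other genes followed its pattern most closely. The measure was the root mean square difference between values centred on each gene's own mean over 9 arrays. It was 0.10 log2 units for each of Itm2c, Cenpu and Efnb1. Having been picked for likeness to Aurkb, each was also highest in PicoPure replicate 1, at 7.73, 11.11 and 8.60. Itm2c was above background on only 2 arrays. The closest of so many genes over 9 arrays are given as a description.

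The genes that recruit, oppose or carry out the work of these kinases were described from a list of 59, of which 57 had a row. Of these 57, 48 lay above background on all arrays and 3 (Ajuba, Kif15 and Plk3) on none. In crude lysate 3 of 57 were lower and 0 higher, where 0.667% of all genes were lower and 0.341% higher, and none passed between PicoPure and RNeasy. At an unadjusted p below 0.05 there were 11 (19.3%) and 6 (10.5%), beside the 14.2% and 7.98% of all genes. Of the 8597 genes above background on every array the shares were 16.5% and 12.5%. Of those 8597, limma called 114 lower and 25 higher in crude lysate. The median difference of the list was -0.10 for crude lysate, with 39 members negative, and -0.05 with 31 negative under a further quantile normalization. That of the 8597 genes moved as well, from -0.02 with 4592 negative to 0.03 with 3710 negative. Between the kits the median of the list was 0.08, beside 0.02 for the 8597 genes. Both comparisons come from the same fit and share its estimate of the spread, so the p-values of a gene in both are not independent.

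Among 17 regulators and recruiters, 1 passed. Cep192, a centrosomal scaffold that gathers Aurora A and Plk1 at spindle poles, had 8.60, 8.50 and 8.22 in crude lysate, 9.20, 8.98 and 8.90 with RNeasy and 9.57, 9.95 and 9.71 with PicoPure. The preparations were thus separate, with crude lysate lowest. Crude lysate was lower by -0.95 ± 0.12 (SE; limma, adjusted p = 0.0188). Without RNeasy replicate 1, RNeasy replicate 2 or PicoPure replicate 2 the limma adjusted p was 0.055, 0.0524 or 0.0517. Its other 2 rows lay below background in all RNeasy oocytes, so no difference from purified RNA is given for them. Their means in crude lysate were 8.57 and 7.89, beside 9.30 and 8.76 with PicoPure. In the fit over all rows neither passed (limma, adjusted p = 0.503 and 0.592), and with the mean of all rows the sign of the gene turned (limma, adjusted p = 0.781), so the call holds for 1 row and not for the gene as a whole. Haspin, the histone kinase whose mark brings the passenger complex to centromeres, had 11.23, 11.36 and 10.72 with RNeasy, 11.95, 11.85 and 11.74 with PicoPure and 11.71, 11.94 and 11.94 in crude lysate. All RNeasy oocytes were below the others, but PicoPure minus RNeasy, at 0.74 ± 0.16, did not pass (limma, adjusted p = 0.305).

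Among 20 targets and partners at kinetochore, spindle and midzone, 1 passed. In crude lysate 17 had a negative difference, where 49.4% of all genes and 53.4% of the 8597 above background on every array did. Under a further quantile normalization 12 of the 20 were negative, beside 9261 of all 19938 genes and 3710 of the 8597. Between the kits 17 had a positive difference, where 41.5% and 53.6% of those genes did. Kif20b, a kinesin of late cell division, had 10.96, 10.96 and 11.03 in crude lysate, 11.54, 11.47 and 11.54 with RNeasy and 11.88, 11.80 and 11.52 with PicoPure. Every crude lysate lay below every purified oocyte. The difference was -0.64 ± 0.08 (SE), or 1.56-fold lower (limma, adjusted p = 0.0188), and the adjusted p was 0.0619, 0.0524, 0.057 and 0.0565 with any of 4 oocytes left out, namely replicates 1 and 2 of RNeasy, 2 of PicoPure and 2 of direct lysis. Kif20a, the kinesin that carries the passenger complex to the midzone, had 9.01, 8.97 and 9.17 in crude lysate, 9.07, 9.27 and 8.90 with RNeasy and 9.53, 9.63 and 9.47 with PicoPure. PicoPure stood apart from the other preparations, yet its difference from RNeasy of 0.46 ± 0.11 did not pass (limma, adjusted p = 0.314).

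Among 20 genes of opposing phosphatases, turnover and other polo kinases, 1 passed. Cdc20, the activator of the anaphase-promoting complex, had 9.30, 8.58 and 9.14 in crude lysate, 9.86, 9.87 and 10.26 with RNeasy and 10.48, 10.19 and 10.15 with PicoPure. Again every crude lysate was below every purified oocyte. The difference was -1.13 ± 0.18 (SE), or 2.19-fold lower (limma, adjusted p = 0.0325). Its limma adjusted p lay between 0.0531 and 0.0853 without any 1 oocyte other than direct lysis replicate 1 (0.0693 without RNeasy replicate 3), and was 0.0787 under a further quantile normalization. Ppp2r5c, a regulatory subunit of protein phosphatase 2A, had 11.40, 10.49 and 10.80 in crude lysate and 11.49 to 11.81 in the 6 purified oocytes, without overlap, and did not pass (-0.68 ± 0.19; limma, adjusted p = 0.163).

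**Figure D5:**
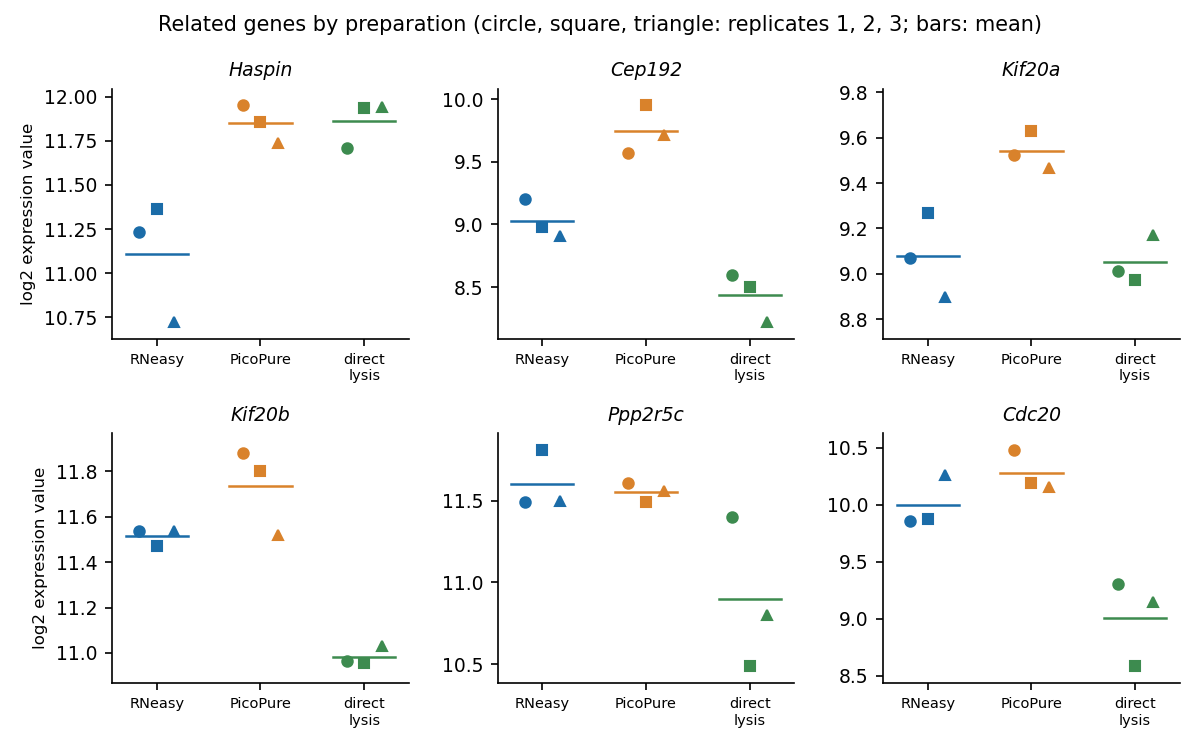
Log2 expression value (vertical axis) of 6 related genes by preparation (horizontal axis), with circles, squares and triangles for the oocytes numbered 1, 2 and 3 and a bar for the mean of 3. The vertical scale differs between panels. Cep192, Kif20b and Cdc20 are lowest in all 3 crude lysates.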

How the data were processed

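The authors deposited a table of normalized log2 expression values (35556 rows, 9 arrays, 0 missing values). The submitters' processing notes name GCOS, Expression Console from Affymetrix and GCRMA, with their order and versions not given in the sources used here. The scale was read as log2 from the values (2.41 to 13.90, array medians 7.12 to 7.24). Scanner files were not used here. Precision is limited by the small number of arrays, and the labels and files give no batch. The probe table of the platform gave the gene names: 21789 had 1 symbol, 1621 several and 12146 none.

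Limma 3.58.1 in R 4.3.3 (lmFit, eBayes, default settings) fitted 3 group means to all 19938 genes over 9 arrays with 6 residual degrees of freedom. It compared crude lysate minus the mean of both purified groups and PicoPure minus RNeasy. Two-sided p-values were adjusted by Benjamini-Hochberg over all genes, with 0.05 as the threshold. No filter was applied. The fit was tested on simulated data. Named genes were the members, every related gene past the threshold, those 2 of each part of the list with the smallest p above background, and the 3 genes most like the most variable member. The promoters of the other 4 members are not reported here. Members and lists were chosen with earlier results of these data known.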

Additional observations from a re-analysis of the deposited data

Results flagged for a closer look

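Aurkb in PicoPure replicate 1, at 9.56, stood apart from the other 5 oocytes of purified RNA (8.77 to 8.97). The gap to its neighbour made up 0.742 of the whole range of the 6 oocytes, above the 95% critical value of Dixon's test, which was applied to each of the 8 members over both column kits together. Chance flags about 5% of groups.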

How the results depend on the processing

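No member passed over all genes in any of 17 alternatives for either comparison. For Birc5 the difference kept its sign in all, between -0.31 and -0.24 for crude lysate (limma, adjusted p between 0.0567 and 0.186) and between -0.44 and -0.36 between the kits (adjusted p between 0.0905 and 0.423), and for Tpx2 between the kits it lay between 0.37 and 0.43 (adjusted p between 0.0951 and 0.412). With the mean of all rows the called difference of Cep192 for crude lysate turned from -0.95 to 0.25 (limma, adjusted p = 0.781). The other signs that turned were of differences near 0. Under a further quantile normalization crude lysate minus purified RNA was 0.12 for Aurkc, 0.073 for Incenp and 0.013 for Tpx2. With the mean of all rows PicoPure minus RNeasy was 0.093 for Aurkc. With single arrays left out, crude lysate minus purified RNA ran from -0.042 to 0.16 for Aurkb, -0.16 to 0.10 for Aurkc and -0.15 to 0.11 for Incenp, and PicoPure minus RNeasy from -0.051 to 0.025 for Aurkc and -0.0081 to 0.11 for Cdca8. The number of genes called ran from 24 to 232 for crude lysate and from 0 to 15 between the kits with single arrays left out. A further quantile normalization gave 75 higher and 83 lower for crude lysate. Between the kits limma with a trend and robust spread called 0 genes (1595 at an unadjusted p below 0.05). With the replicate number as a block it called 25 for crude lysate and 0 between the kits (1549 at an unadjusted p below 0.05), where Cep192, Kif20b and Cdc20 had adjusted p-values of 0.068, 0.0737 and 0.0735. With the block the SE of crude lysate minus purified RNA fell from 0.13 to 0.07 for Incenp and from 0.09 to 0.06 for Cdca8. For Tpx2 it fell from 0.062 to 0.058, and for the other members it rose. The labels state no shared origin of the numbers. Over the 8597 genes above background on every array, the deviations of same-numbered oocytes correlated between -0.07 and 0.11 over 9 pairs. In 4 of these 9 the best match was the oocyte of the same number. The cause of these changes was not tested.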

Other observations

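The 2 rows of Cep192 that were not used above, singled out after their values were seen, were above background in all PicoPure oocytes and in no RNeasy oocyte. In the brighter of them RNeasy had 6.12 ± 0.63 (SD, n = 3), PicoPure 9.30 ± 1.13 (SD, n = 3) and direct lysis 8.57 ± 0.73 (SD, n = 3). The dimmer row had 5.33 ± 1.00, 8.76 ± 0.48 and 7.89 ± 1.49. All RNeasy values of both rows lay below the background level, so no difference is given.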
